A study of Mus musculus with 47 samples.

Results

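The genes described here were the 8 MAP kinase phosphatases Dusp1, Dusp2, Dusp4, Dusp5, Dusp6, Dusp7, Dusp10 and Dusp16, followed across all 12 RNA-seq libraries of a study of the chromatin reader ZMYND8 in mouse macrophages. They were found by gene symbol among the 51912 genes of the tables for bone marrow-derived macrophages (BMDMs) and among the 12771 to 23772 genes of the tables for the Raw264.7 lines, and each table listed all 8. Every one of them also passed the filter on low values in all 11 comparisons.

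MAP kinases (ERK, JNK and p38) are switched on by phosphate on a threonine and a tyrosine of their activation loop, and MAP kinase phosphatases remove both. Dusp1, Dusp2, Dusp4 and Dusp5 encode mainly nuclear enzymes that cells make after a stimulus, Dusp6 and Dusp7 encode cytoplasmic enzymes that prefer ERK, and Dusp10 and Dusp16 encode enzymes that act on JNK and p38. In macrophages Dusp1 is known as a brake on p38 and JNK after exposure to lipopolysaccharide (LPS), and Dusp6 is a classical feedback gene of the ERK cascade.

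The BMDMs came from C57BL/6 mice and were either WT (littermates with the floxed Zmynd8 allele) or Zmynd8 cKO, in which a Cre recombinase knocked into the Lyz2 gene deletes floxed Zmynd8 exons in myeloid cells. They were left untreated (NT) or were given LPS at 100 ng/ml or IL-4 at 20 ng/ml for 6 h, and LPS and IL-4 drive the classical and the alternative macrophage state. Raw264.7 is an established mouse macrophage line, and its 6 libraries came from Zmynd8 KO cells, Zmynd8 KO cells given back Zmynd8, Zmynd8 KO cells given a D/E-A mutant in which acidic residues were replaced by alanine, p65 KO cells, p65 KO cells given back WT p65, and p65 KO cells given p65 K122R, whose lysine can no longer be acetylated. The p65 lines were labelled as treated with LPS, the study text gives LPS for the Zmynd8 and D/E-A lines, and the labels give no treatment for the library labelled Zmynd8 KO. Each condition had 1 library, and the study's methods say of the BMDMs that biological replicates were mixed before sequencing, so that no difference between 2 libraries has a replicate check. The limits given beside a ratio are 95% limits by the exact Clopper-Pearson method, computed from the reads of both libraries. They cover counting error only, and "rose", "fell" and "called" compare those 2 libraries and not the conditions.

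The BMDM libraries held 22597408 to 28386612 estimated counts and the Raw264.7 libraries 15127110 to 21042628 reads. Counts over the whole Zmynd8 gene were not called different in cKO BMDMs, at 87.1 CPM (counts scaled to the library total) in WT and 81.5 CPM in cKO without treatment, 79.0 and 86.8 CPM with LPS, and 128 and 151 CPM with IL-4, and such counts do not test a deletion of a few exons. Lyz2, which the Cre allele interrupts, was lower in all 3 cKO libraries, at 7202 against 10950.5 CPM (NT), 2892 against 6902 CPM (LPS) and 5245 against 8941 CPM (IL-4). Xist also differed among the BMDM libraries. It read 739.7 CPM in WT and 323 CPM in cKO (NT), 246 and 429 CPM (LPS), and 1108 and 1057 CPM (IL-4). The part of this difference in the comparisons below was not tested. In the Raw264.7 lines Zmynd8 read 5.75 CPM in the library labelled Zmynd8 KO (the only value of these tables that is not a whole number of reads) and 26.4 and 27.7 CPM in those with Zmynd8 and D/E-A, while Rela, the gene of p65, read 50.6 CPM in p65 KO, 102 CPM with WT p65 and 351 CPM with K122R. The 8 macrophage markers were detected in every library, and the 4 LPS markers summed to 10409.5 and 10661 CPM in the LPS-treated BMDMs, to 3588 to 7909 CPM in the Raw264.7 libraries and to 148 CPM or less in the other BMDMs. The 8 neutrophil markers summed to 2.33 to 4.22 CPM in NT and LPS BMDMs and to 382 and 514 CPM in the WT and cKO libraries with IL-4. They summed to 0.18 to 0.319 CPM in the p65 lines, but to 10353 CPM (Zmynd8), 4422 CPM (D/E-A) and 6966 CPM (Zmynd8 KO) in the libraries labelled as Zmynd8 lines, which also held 7109 to 8467 reads of Xist against 0 to 3 in the p65 lines and 65039.6 to 137355 CPM of the ribosomal RNA entry Rn18s-rs5 against 1792 to 5094 CPM. Among the other cell types, dendritic cell markers summed to 35.3 to 248 CPM, B cell markers to 1.96 to 389 CPM and T cell markers to 0.382 to 18.1 CPM over the 12 libraries. The libraries labelled as Zmynd8 lines therefore stood apart from the p65 lines. Whether they are Raw264.7 cells, as labelled, could not be settled from these values, they are called so after their labels only, and values are compared only within each set.

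In the mm10 coordinates of the files, Dusp1 lay on the minus strand at chr17:26505591-26508472, Dusp2 on the plus strand at chr2:127336159-127338377, Dusp4 on the plus strand at chr8:34807610-34819894 and Dusp5 on the plus strand at chr19:53529318-53541322. Dusp6 (chr10:99263231-99267489), Dusp7 (chr9:106368610-106375724) and Dusp10 (chr1:184034461-184075636) lay on the plus strand, and Dusp16 lay on the minus strand at chr6:134715468-134792628. In the GENCODE annotation Dusp1 overlaps Ergic1 on the opposite strand, Dusp10 overlaps 1700056E22Rik, Dusp5 and Dusp16 each overlap an antisense transcript, and Dusp2, Dusp4, Dusp6 and Dusp7 overlap no other gene. Whether the counting used the strand was not given in the sources used here, so reads of such partners could not be told apart.

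RefSeq windows around the annotated start (250 bases before it and 50 from it on, GRCm38.p6) were found for 7 of the 8 genes, for Dusp1, Dusp2, Dusp5, Dusp6, Dusp7, Dusp10 and Dusp16. The windows of 4 genes are shown because these genes moved together in pairs, Dusp1 and Dusp2 up and Dusp6 and Dusp7 down, when BMDMs met LPS. Capitals mark every match, on either strand, to GGG and CC with any 5 bases between them (NF-kB-like) and to TGACGT (the core of a cyclic AMP response element, CRE). The windows lie at chr17:26508423-26508722 (minus strand), chr2:127335909-127336208 (plus), chr10:99262981-99263280 (plus) and chr9:106368382-106368681 (plus).
Dusp1: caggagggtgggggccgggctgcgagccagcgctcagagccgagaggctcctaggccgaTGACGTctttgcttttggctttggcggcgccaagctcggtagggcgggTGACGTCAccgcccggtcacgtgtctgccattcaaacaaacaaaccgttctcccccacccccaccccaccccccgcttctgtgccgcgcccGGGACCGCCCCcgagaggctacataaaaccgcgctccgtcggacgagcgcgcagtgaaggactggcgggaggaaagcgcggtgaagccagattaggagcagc
Dusp2: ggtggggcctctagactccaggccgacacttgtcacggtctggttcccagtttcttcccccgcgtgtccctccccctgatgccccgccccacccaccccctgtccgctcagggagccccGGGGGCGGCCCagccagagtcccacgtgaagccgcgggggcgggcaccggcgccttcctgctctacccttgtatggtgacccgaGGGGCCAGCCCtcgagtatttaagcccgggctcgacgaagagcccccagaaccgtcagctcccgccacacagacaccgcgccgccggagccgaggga
Dusp6: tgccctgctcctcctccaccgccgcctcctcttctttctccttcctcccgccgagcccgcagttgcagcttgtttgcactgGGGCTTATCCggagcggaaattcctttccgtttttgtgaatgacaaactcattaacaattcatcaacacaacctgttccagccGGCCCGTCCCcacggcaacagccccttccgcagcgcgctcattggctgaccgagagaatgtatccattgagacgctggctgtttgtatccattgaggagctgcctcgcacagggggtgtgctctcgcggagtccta
Dusp7: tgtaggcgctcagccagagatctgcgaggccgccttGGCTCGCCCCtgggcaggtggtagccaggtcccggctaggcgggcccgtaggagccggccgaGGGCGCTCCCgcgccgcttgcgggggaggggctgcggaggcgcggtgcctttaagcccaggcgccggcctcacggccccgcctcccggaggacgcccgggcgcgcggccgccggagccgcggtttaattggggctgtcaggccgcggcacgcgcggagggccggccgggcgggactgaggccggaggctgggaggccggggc

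The NF-kB-like letters matched at 3 places in the Dusp1 window, 6 in Dusp2, 2 in Dusp6 and 3 in Dusp7, many of them overlapping or the same bases read on both strands, and 50.8% of all 32851 windows held at least 1 match. The CRE core matched at 3 places in Dusp1 and at 1 place in Dusp5, and 7.51% of all windows held one. A pair of the Dusp1 matches overlap, from 143 to 136 bases before the start, and form 1 full site read on both strands. No window of the 7 held TGANTCA (AP-1, 7.81% of all windows) or TTC and GAA with any 4 bases between them (STAT6-like, 6.95%), and CC and GG with any 6 bases between them (CArG-like, 73.3%) matched in every one but Dusp6. CArG-like matches can overlap the NF-kB-like ones. These letters describe the windows, and nothing was drawn from them about factors that bind there.

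Untreated BMDMs held a mixed set of phosphatase mRNAs, and each stimulus left 1 gene in front. Levels between genes are given in TPM, which divides by transcript length as well as by library size. In the untreated WT library Dusp1 led at 74.4 TPM, or 35.6% of the 209 TPM of all 8 genes, followed by Dusp6 (41.2 TPM), Dusp7 (40.7 TPM) and Dusp4 (29.1 TPM). Dusp5 (11.7 TPM), Dusp16 (5.29 TPM), Dusp2 (4.65 TPM) and Dusp10 (1.82 TPM) made up the rest. In that order the neighbours Dusp6 and Dusp7, and Dusp16 and Dusp2, had overlapping 95% counting limits. The untreated cKO library held 178 TPM in all with the same 4 genes in front, Dusp7 (40.8 TPM) above Dusp6 (31.5 TPM). This lower sum depends on the scale. In CPM Dusp1 (90.6 in WT and 96.9 in cKO) and Dusp7 (84.8 and 98.5) were higher in cKO. Dusp6 (61.4 and 59.4 CPM) was close and Dusp4 (52.0 and 38.1 CPM) was lower.

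With LPS the sum was 265 TPM in WT and 336 TPM in cKO, and Dusp1 alone supplied 74.0% and 76.4% of it (196 and 257 TPM). Dusp2 came next at 24.6 and 28.2 TPM, and Dusp4 was last at 0.75 and 1.95 TPM. In WT Dusp7, Dusp5 and Dusp16 followed at 11, 10.8 and 9.36 TPM, and the counting limits of each neighbouring pair overlapped while those of Dusp7 and Dusp16 did not. In cKO Dusp5, Dusp7, Dusp16 and Dusp6 followed at 11.2, 11, 10.6 and 9.59 TPM, and here too the limits of each neighbouring pair overlapped.

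With IL-4 the sum was 207 TPM in WT and 214 TPM in cKO, near that of untreated WT cells, but Dusp4 supplied 62.1% and 62.5% of it. Dusp4 read 128 TPM in WT and 134 TPM in cKO, against 36.4 and 34.0 TPM for Dusp1, 20.0 and 19.8 TPM for Dusp7 and 11.1 and 11 TPM for Dusp6. Dusp4 was thus the highest of the 8 genes with IL-4 and the lowest with LPS in both genotypes. In bulk RNA, fewer cells that express a gene and less of its mRNA per cell cannot be told apart.

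**Figure D1:**
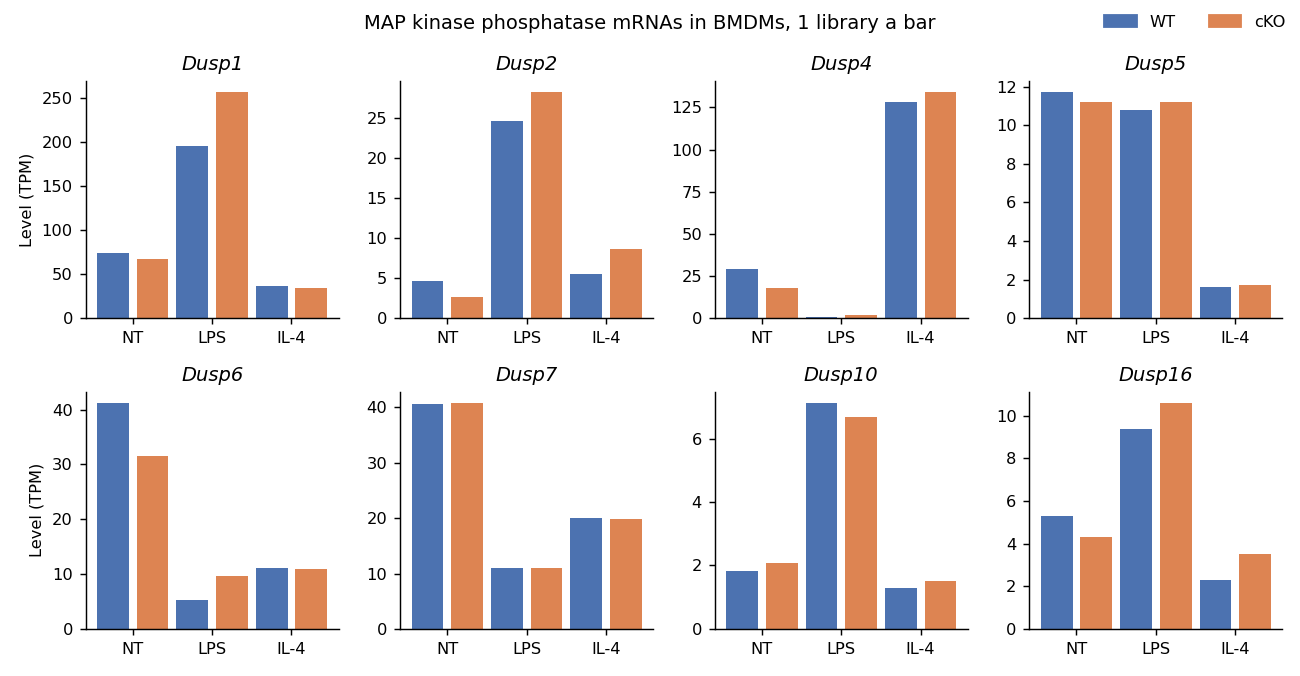
Level in TPM (vertical axis, starting at 0 and scaled per gene) of the 8 genes in the 6 BMDM libraries, grouped by treatment, with blue bars for WT and orange bars for cKO. Dusp1, Dusp2, Dusp10 and Dusp16 stood highest with LPS, Dusp4 with IL-4 (128 and 134 TPM) and Dusp6 and Dusp7 without treatment.

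**Figure D2:**
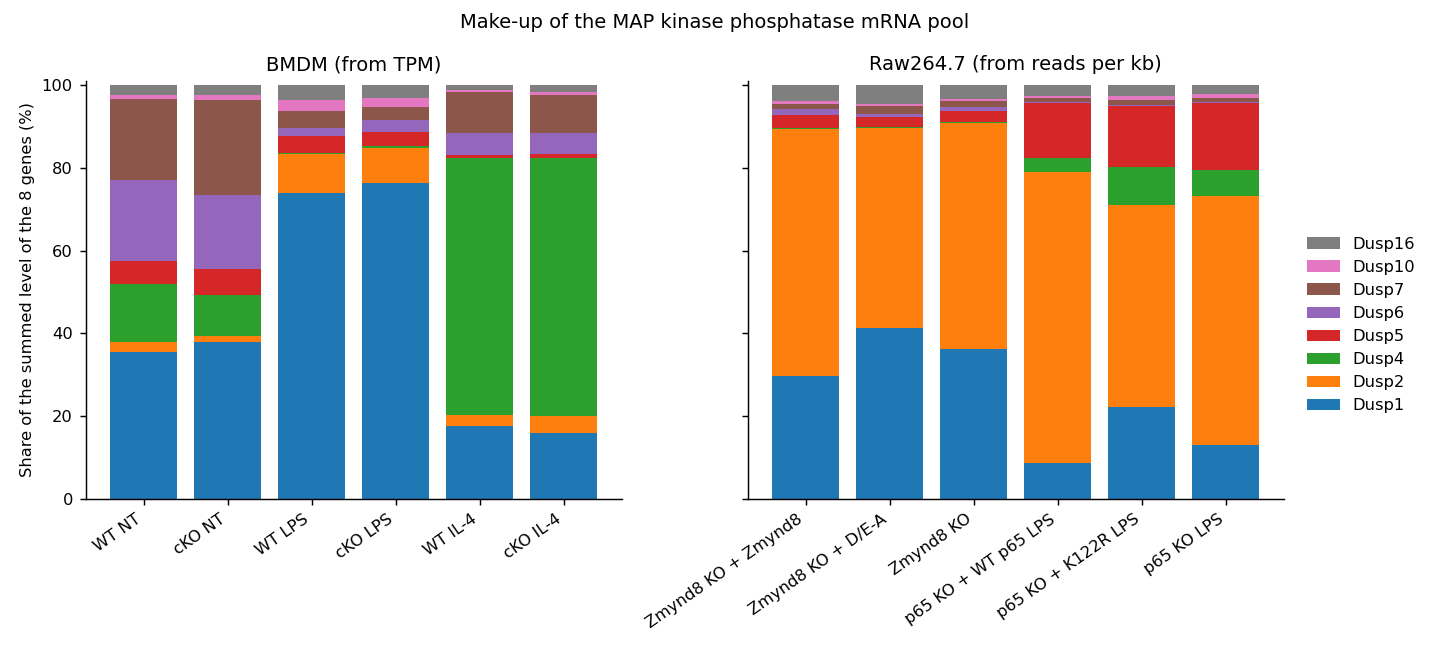
Share of the summed level of the 8 genes (vertical axis, percent) in each library, from TPM in BMDMs (left) and from reads per kilobase of merged exons in Raw264.7 cells (right). Dusp1 filled 74.0% and 76.4% of the LPS-treated BMDM bars and Dusp4 62.1% and 62.5% of the IL-4 bars, while Dusp2 filled 48.5% to 70.4% of the Raw264.7 bars.

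The response to LPS was compared with NT within each genotype. Of the 8 genes 4 rose and 3 fell in WT, and again 4 rose and 3 fell in cKO, by a rule that called a gene at a fold of at least 1.2 and a Benjamini-Hochberg adjusted p under 0.05 in a two-sided exact binomial test of the reads. The rule called 20.6% of all 12813 genes higher and 61.1% lower in WT, and 23.8% higher and 58.9% lower of 12666 in cKO, so that a call by itself was common. Scaling to library totals put the median gene at a log2 change of -0.58 in WT and -0.55 in cKO, and median-ratio scaling moved the share of calls that were higher from 25.2% to 50.8% in WT and from 28.8% to 51.2% in cKO. Changes are therefore given as ratios of CPM and then as log2 changes with the median gene near 0.

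Among the nuclear, inducible phosphatases, Dusp1 rose from 90.6 to 248 CPM in WT, 2.74 times the NT level (limits 2.62 to 2.88), and from 96.9 to 307 CPM in cKO, 3.17 times (3.02 to 3.33). Relative to the median gene these were log2 changes of 2.15 and 2.31. Dusp2, an ERK and p38 phosphatase abundant in activated immune cells, rose from 3.78 to 23.8 CPM in WT (6.29 times, limits 5.08 to 7.87) and from 2.96 to 25.3 CPM in cKO (8.54 times, limits 6.62 to 11.2). Its log2 changes relative to the median were 2.99 and 3.29, the largest rises of the 8 genes in both genotypes.

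Dusp4, a nuclear phosphatase of ERK and JNK, moved the other way and fell from 52.0 to 1.41 CPM in WT, 37.0-fold (limits 26.5 to 53.4), and from 38.1 to 3.46 CPM in cKO, 11-fold (8.76 to 14.0). By log2(CPM + 1) change Dusp4 ranked 11 from the lowest of 12813 genes in WT and 186 from the lowest of 12666 in cKO. The fall in WT rested on 35 counts in the LPS library, and the fall in cKO on 81. Dusp5, a nuclear phosphatase that acts on ERK alone, read 18.7 CPM without and 18.0 CPM with LPS in WT, and 21.3 and 17.7 CPM in cKO, and was not called, but relative to the median gene it was called higher in both genotypes at log2 changes of 0.62 and 0.38.

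Both cytoplasmic ERK phosphatases fell. Dusp6 went from 61.4 to 8.75 CPM in WT, 7.01-fold (limits 6.08 to 8.12), and from 59.4 to 14.4 CPM in cKO, 4.12-fold (3.65 to 4.65). Dusp7 went from 84.8 to 24.5 CPM in WT, 3.47-fold (3.17 to 3.80), and from 98.5 to 23.0 CPM in cKO, 4.28-fold (3.90 to 4.71). They also fell relative to the median gene, Dusp6 by 2.01 and 1.33 and Dusp7 by 1.06 and 1.41 on the log2 scale in WT and cKO.

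Both JNK and p38 phosphatases rose. Dusp10 went from 3.32 to 13.1 CPM in WT (3.96 times, limits 3.11 to 5.07) and from 4.51 to 11.9 CPM in cKO (2.63 times, limits 2.09 to 3.33). Dusp16 went from 17.1 to 29.3 CPM in WT (1.72 times, limits 1.52 to 1.94) and from 15.8 to 31.8 CPM in cKO (2.01 times, limits 1.77 to 2.29). Over the 8 genes the median log2(CPM + 1) change was 0.35 in WT and 0.36 in cKO, set beside -0.58 and -0.55 over all genes. The WT and cKO responses were not tested against each other, since each rests on a single pair of libraries.

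**Figure D3:**
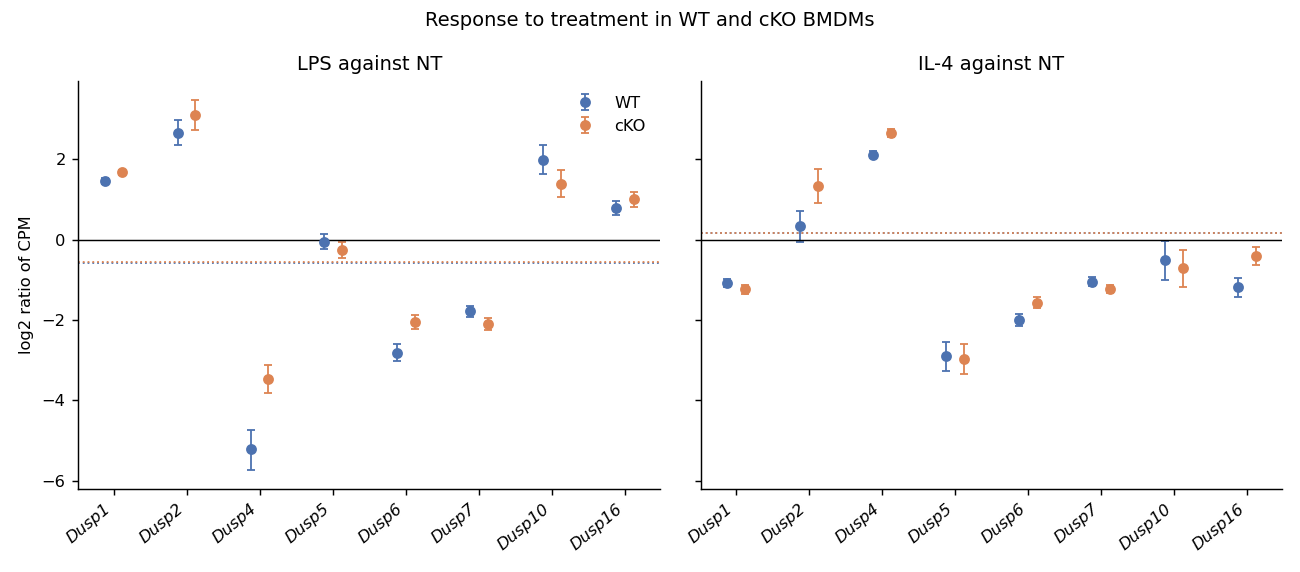
Log2 ratio of CPM (vertical axis) of LPS against NT (left) and IL-4 against NT (right) for the 8 genes, blue for WT and orange for cKO, with exact 95% counting limits as bars and dotted lines at the median of all genes on the log2(CPM + 1) scale. With LPS, Dusp1, Dusp2, Dusp10 and Dusp16 lay above 0 and Dusp4, Dusp6 and Dusp7 below, and with IL-4 Dusp4 and Dusp2 lay above 0 and the other 6 genes below.

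With IL-4 the pattern was mostly one of falls. Of the 8 genes 1 rose and 6 fell in WT, where 38.6% of all 13090 genes were called higher and 21.7% lower, and 2 rose and 6 fell in cKO, where 42.2% of 12966 were called higher and 24.8% lower. The median gene moved by 0.15 in WT and 0.17 in cKO, and median-ratio scaling took the share of calls that were higher from 64.1% to 49.6% and from 63% to 51.0%, without changing the number of the 8 genes called in either direction. With an assumed variation of 0.2 in the edgeR exact test, which called 18.0% of all genes in WT, Dusp1, Dusp7 and Dusp10 lost their call in WT and 4 of the 8 kept theirs. The IL-4 libraries carry sequencer sample numbers that lie apart from those of the NT and LPS libraries. The labels do not say whether they were sequenced separately, and any such difference cannot be told apart from the treatment.

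Dusp4 rose from 52.0 to 225 CPM in WT (4.33 times, limits 4.08 to 4.60) and from 38.1 to 239.9 CPM in cKO (6.30 times, limits 5.87 to 6.78). Its log2(CPM + 1) change ranked 328 from the highest of 13090 genes in WT and 312 of 12966 in cKO. Dusp2 read 3.78 and 4.76 CPM in WT, which was not called, and rose from 2.96 to 7.46 CPM in cKO (2.52 times, limits 1.90 to 3.37). No other member was higher with IL-4 in either genotype.

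Dusp5 fell most, from 18.7 to 2.5 CPM in WT (7.46-fold, limits 5.81 to 9.71) and from 21.3 to 2.72 CPM in cKO (7.83-fold, limits 6.10 to 10.2), ranking 110 and 84 from the lowest of all genes on the log2(CPM + 1) scale. Dusp6 fell 4.0-fold in WT (61.4 to 15.4 CPM) and 2.96-fold in cKO (59.4 to 20.1 CPM), and Dusp7 2.06-fold (84.8 to 41.1 CPM) and 2.33-fold (98.5 to 42.3 CPM). Dusp1 fell from 90.6 to 42.6 CPM in WT and from 96.9 to 41.1 CPM in cKO, 2.13-fold and 2.36-fold, the reverse of its change with LPS.

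Dusp16 fell from 17.1 to 7.47 CPM in WT (2.28-fold, limits 1.93 to 2.70) and less far in cKO, from 15.8 to 11.9 CPM (1.32-fold, limits 1.13 to 1.55). Dusp10 was low throughout, at 3.32 and 2.33 CPM in WT and 4.51 and 2.76 CPM in cKO, and fell 1.43-fold and 1.64-fold. The median log2 change over the 8 genes was -1.05 in WT and -0.88 in cKO, set beside 0.15 and 0.17 over all genes. Neutrophil markers were also higher in the IL-4 libraries, from 2.33 to 382 CPM in WT and from 2.35 to 514 CPM in cKO, as were dendritic cell markers, from 50.7 to 248 CPM in WT and from 68.0 to 215 CPM in cKO. Their part in these changes was not tested.

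The cKO and WT libraries were then compared under each treatment, with a single library of each genotype. An effect of the loss of ZMYND8 cannot be told apart from other differences between the libraries, such as the Cre allele in Lyz2. No member reached a fold of 2 on the log2(CPM + 1) scale in any of the 3 comparisons, while 3.83% of all genes did without treatment, 0.904% with LPS and 1.97% with IL-4. With an assumed biological variation of 0.2 in the edgeR exact test, 0 of the 8 were called in each of the 3 comparisons, as were only 2.19%, 0.299% and 1.21% of all genes, so the calls below hold for counting error alone.

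Without treatment only Dusp4 of the 8 was called, at 52.0 CPM in WT and 38.1 CPM in cKO, 1.37-fold lower (limits 1.25 to 1.49), where 25.9% of all 12463 genes were called lower and 21.7% higher. Dusp1 (90.6 and 96.9 CPM), Dusp5 (18.7 and 21.3 CPM), Dusp6 (61.4 and 59.4 CPM) and Dusp7 (84.8 and 98.5 CPM) stayed within a fold of 1.2. Dusp2 read 3.78 CPM in WT and 2.96 CPM in cKO, Dusp10 3.32 and 4.51 CPM and Dusp16 17.1 and 15.8 CPM, and none of them was called. By the deposited TPM and the fold alone, Dusp2 (4.65 and 2.61 TPM) and Dusp6 (41.2 and 31.5 TPM) were called lower as well, and the share of calls over all genes that were higher was 22.0% in place of 45.5%. Lower calls were thus the commoner ones over all genes by this rule, and little can be read from those of Dusp2 and Dusp6.

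With LPS 3 of the 8 rose and none fell, where 17.1% of all 12386 genes were called higher and 8.76% lower. Dusp4 was 2.46 times as high in cKO as in WT (1.41 and 3.46 CPM, limits 1.64 to 3.77), and its log2(CPM + 1) difference ranked 109 from the highest. Dusp6 was 1.65 times as high (8.75 and 14.4 CPM, limits 1.39 to 1.96) and Dusp1 1.24 times (248 and 307 CPM, limits 1.2 to 1.28). Dusp4 and Dusp6 rested on 81 against 35 and on 338 against 218 counts. The other 5 genes were within a fold of 1.2, Dusp2 at 23.8 and 25.3 CPM, Dusp5 at 18.0 and 17.7 CPM, Dusp7 at 24.5 and 23.0 CPM, Dusp10 at 13.1 and 11.9 CPM and Dusp16 at 29.3 and 31.8 CPM.

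With IL-4 again 3 of the 8 rose and none fell, where 13.8% of all 13245 genes were called higher and 10.5% lower. Dusp16 was 1.60 times as high in cKO (7.47 and 11.9 CPM, limits 1.34 to 1.91), Dusp2 1.57 times (4.76 and 7.46 CPM, limits 1.25 to 1.97) and Dusp6 1.31 times (15.4 and 20.1 CPM, limits 1.15 to 1.49). In TPM Dusp6 did not differ, at 11.1 in WT and 11 in cKO, a log2 difference of -0.01. Dusp4 (225 and 239.9 CPM) and Dusp1 (42.6 and 41.1 CPM) were close to each other in the 2 genotypes. The 4 LPS markers summed to 148 CPM in the cKO library and 36.8 CPM in the WT library with IL-4, and their part in the rise of Dusp2 and Dusp16 was not tested.

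**Figure D4:**
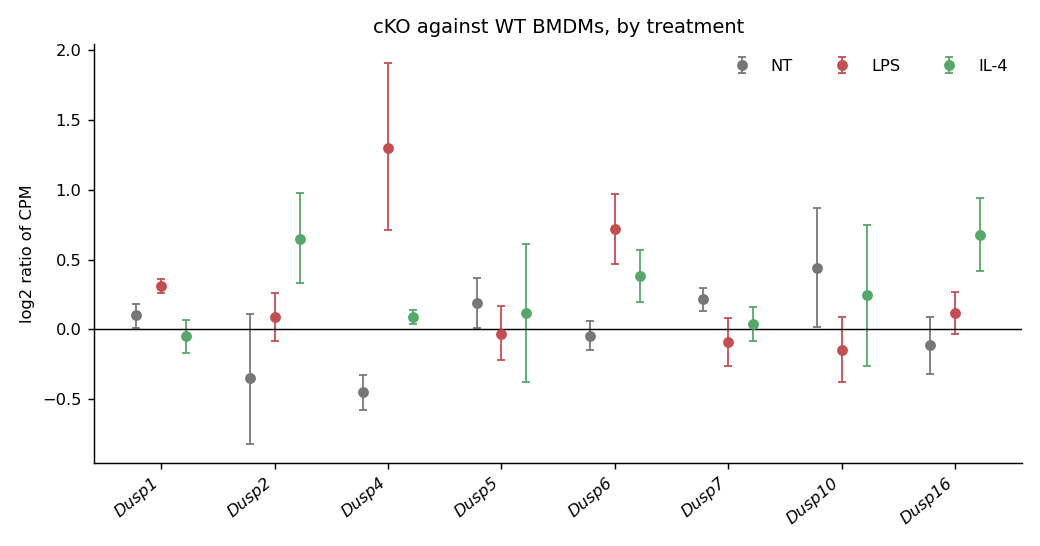
Log2 ratio of CPM of cKO against WT BMDMs (vertical axis) for the 8 genes, grey without treatment, red with LPS and green with IL-4, with exact 95% counting limits as bars. Dusp4 lay below 0 without treatment (38.1 against 52.0 CPM) and above 0 with LPS (3.46 against 1.41 CPM), and most other points lay near 0.

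A single fit over the 6 BMDM libraries, chosen after the data had been seen, took genotype and treatment as additive terms in edgeR's quasi-likelihood test, with 2 residual degrees of freedom. It uses WT and cKO as repeats of each treatment and the 3 treatments as repeats of each genotype, and counts any difference in response between genotypes as error. Each SE given below was derived from the test, as the size of the log2 change divided by the square root of its F statistic. For LPS 7 of the 8 were called at an adjusted p under 0.05, 4 higher and 3 lower, where 25.1% of all 13074 genes were called higher and 25.7% lower. Dusp2 rose by a log2 change of 3.50 (SE 0.28, edgeR adjusted p = 0.000269), Dusp10 by 2.34 (SE 0.26), Dusp1 by 2.21 (SE 0.20) and Dusp16 by 1.54 (SE 0.23), while Dusp4 fell by 3.61 (SE 0.40), Dusp6 by 1.77 (SE 0.22) and Dusp7 by 1.29 (SE 0.18). Dusp5, at 0.50 (SE 0.19), was not called.

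For IL-4 the same fit called 6 of the 8, 1 higher and 5 lower, where 10.6% of all genes were called higher and 10.2% lower. The count behind these shares, 2718 genes, was 4590 without WT NT, 1581 without WT IL-4 and 1555 without cKO IL-4. Dusp4 rose by 2.18 (SE 0.35, edgeR adjusted p = 0.00741), and Dusp5 fell by 3.11 (SE 0.21, edgeR adjusted p = 0.000415), Dusp6 by 1.97 (SE 0.22), Dusp1 by 1.33 (SE 0.20), Dusp7 by 1.31 (SE 0.18) and Dusp16 by 0.96 (SE 0.23). Dusp2 (0.66, SE 0.27) and Dusp10 (-0.79, SE 0.27) were not called, and both were called without the untreated WT library. Dusp16 lost its call without the WT IL-4 library and Dusp1 without the cKO IL-4 library.

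Between cKO and WT the fit called 0 of the 8 and 0.0% of all genes in either direction, and 403 genes (3.08%) had an unadjusted p under 0.05. The log2 differences of the 8 genes lay between 0.05 for Dusp7 (SE 0.15) and 0.33 for Dusp6 (SE 0.18). They turned on single libraries, since leaving out 1 library moved Dusp4 from 0.18 to between -0.17 (without either LPS library) and 0.46 (without WT NT), Dusp2 from 0.14 to between -0.12 (without either IL-4 library) and 0.31, Dusp10 from 0.15 to between -0.02 (without cKO NT) and 0.36 (without either LPS library), and Dusp6 to between 0.17 and 0.52. Over the 3 contrasts of this fit 10 values of the 8 genes changed sign without 1 library or with scaling by library totals, 0 of them called. A genotype effect present under 1 treatment alone is averaged over the 3 in this fit.

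The rest of the MAP kinase pathway was read from lists that were chosen with earlier results of these data known. Counts from these lists are descriptions only. With LPS in WT BMDMs, 2 of the 7 MAP kinase genes past the filter rose and 5 fell, with a median log2 change of -0.74 that lies near the -0.58 of all genes. These and the next counts stand beside 20.6% of all genes called higher and 61.1% lower. Mapk11 (p38 beta) went from 2.67 to 5.86 CPM and Mapk9 (JNK2) from 56.6 to 71.8 CPM, while Mapk14 (p38 alpha) went from 104 to 41.5 CPM. Of 7 MAP kinase kinases 2 rose, Map2k1 (MEK1) from 145 to 338 CPM and Map2k4 from 59.3 to 94.1 CPM, and 5 fell. Of 13 upstream kinases 2 rose and 10 fell (median -0.86), with Map3k8 (TPL2, which feeds ERK after LPS) going from 12.8 to 40.6 CPM. Among kinases that MAP kinases activate, 2 of 10 rose, with Mapkapk2 (MK2) going from 184 to 266 CPM, and 8 fell.

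Of 9 mRNAs known to be stabilised through p38 and MK2, 8 rose and 1 fell in WT, with a median log2 change of 2.91, led by Ptgs2 (0.916 to 175 CPM) and Il1b (1.60 to 65.3 CPM), and Cxcl1 fell from 1.60 to 0.723 CPM. In cKO 8 of 9 rose, with a median of 2.53, where 23.8% of all genes were called higher and 58.9% lower. Of 15 ERK-responsive genes past the filter, 12 fell and 3 rose in WT, with a median of -0.53 that lies near the median of all genes. Egr2 fell from 25.5 to 1.00 CPM and Ier3, which stands in both lists, rose from 7.59 to 63.6 CPM.

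With IL-4 in WT, where 38.6% of all genes were called higher and 21.7% lower, 10 of 15 ERK-responsive genes fell and 2 rose, with a median log2 change of -0.93 set beside 0.15 over all genes. Spry2, a feedback inhibitor of the ERK cascade, fell from 19.4 to 0.528 CPM and Egr1 from 25.1 to 2.33 CPM, while Ier3 rose from 7.59 to 94.3 CPM and Egr2 from 25.5 to 265 CPM. In cKO, where the shares were 42.2% and 24.8%, 9 of 14 fell and 2 rose, with a median of -0.91. Of the MAP kinases in WT 2 rose and 1 fell of 7, and of the kinases they activate 6 rose and 2 fell of 10, with Mapkapk3 going from 49.0 to 281 CPM. Of the p38 and MK2 list 5 of 8 rose and none fell in WT, with a median of 1.35.

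The p38 and MK2 list was then set beside the shares of all genes called in the same cKO and WT pairs, which are 21.7% higher and 25.9% lower (NT), 17.1% and 8.76% (LPS) and 13.8% and 10.5% (IL-4). With IL-4, 6 of its 9 members rose in cKO and none fell, with a median log2 difference of 1.38 set beside 0.01 over all genes, led by Cxcl1 (1.37 and 8.04 CPM) and Tnf (38.7 and 129 CPM). Il1b and Il6 of this list are also LPS markers, which summed to 148 CPM in cKO and 36.8 CPM in WT with IL-4, and the part of that shift was not tested. With LPS 4 of 9 rose, led by Il1b (65.3 and 177 CPM) and Ptgs2 (175 and 401 CPM), and Il10 fell (62.4 and 44.2 CPM). Without treatment 2 of 8 rose and 2 fell, at a median of -0.06, and differences between treatments were not tested. Of the ERK-responsive genes 7 rose and 1 fell of 14 with LPS (median 0.28), led by Egr1 (3.17 and 7.08 CPM), 4 rose and 2 fell of 13 with IL-4 (median 0.13), and 5 rose and 6 fell of 15 without treatment (median -0.24).

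Between genotypes, where the shares of all genes called are those given above, among the atypical dual-specificity phosphatases 1 of 9 rose without treatment (Dusp23, 8.05 and 12 CPM), none of 8 was called with LPS, and 1 of 8 fell with IL-4 (Dusp22, 35.5 and 26.3 CPM). Of the 4 other MAP kinase-directed phosphatases past the filter, 1 fell without treatment, 2 rose with LPS and none was called with IL-4. With LPS against NT, 6 of 9 fell in WT, led by Dusp12 (12.9 to 2.37 CPM) and Dusp3 (238 to 59.7 CPM), and Dusp28 rose (3.89 to 29.4 CPM). The 4 other MAP kinase-directed phosphatases past the filter all fell with LPS in WT, led by Ptpn7 (108 to 32.7 CPM), an ERK and p38 phosphatase of blood cells, and Ppm1d (8.20 to 2.37 CPM). The median log2 changes of these lists were -1.18 and -1.10, set beside -0.58 over all genes, of which 61.1% were called lower.

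The remaining family members, Dusp8 and Dusp9, were low in BMDMs. Dusp8 held 70 and 44 counts in WT and cKO without treatment, 47 and 27 with LPS and 15 and 15 with IL-4. Dusp9 held 183 and 216, 25 and 14, and 81 and 58 counts. Dusp9 fell with LPS from 6.98 to 1.00 CPM in WT (6.96-fold, limits 4.56 to 11) and from 9.56 to 0.598 CPM in cKO (16.0-fold, limits 9.33 to 29.8), so that it fell along with Dusp6 and Dusp7, the other cytoplasmic ERK phosphatases.

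In the libraries labelled Raw264.7 Dusp2 was the most abundant of the 8 per kilobase in all 6. It supplied 59.7% of the summed reads per kilobase with Zmynd8, 48.5% with D/E-A and 54.6% in the library labelled Zmynd8 KO, and 70.4% with WT p65 and 48.8% with K122R. Dusp1 came next in the Zmynd8 lines, at 29.8%, 41.2% and 36.2%, and Dusp5 or Dusp1 in the p65 lines. Dusp4 was among the low members of the Zmynd8 lines (2.17 to 3.07 CPM) and Dusp6 among those of the p65 lines (2.36 to 4.5 CPM).

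The D/E-A line was compared with the Zmynd8 line on the values as deposited, normalized read counts, with a fold of at least 1.2 as the only criterion for a call. Of the 8 genes 6 were called higher and 1 lower, where 36.7% of all 12771 genes were called higher and 35.9% lower. Dusp7 rose from 302 to 660.2 (2.19 times, limits 1.91 to 2.51), Dusp1 from 5077 to 10501 (2.07 times, limits 2.0 to 2.14) and Dusp16 from 2064 to 3605 (1.75 times, limits 1.65 to 1.84). Dusp2 rose from 6929.9 to 8422 (1.22 times) and Dusp10 1.30 times, to 159, and Dusp4 read 39.1 and 56.3 with counting limits of 0.941 to 2.22 times that include equal levels. Dusp6 fell from 284 to 212 (1.34-fold) and Dusp5, at 554 and 648, was not called. On whole reads with the binomial test, which called 60.9% of all genes, 3 of the 8 rose and 1 fell, and Dusp2, Dusp4 and Dusp10 were not called. At a fold of 2, which 18.4% of all genes reached, Dusp1 and Dusp7 remained.

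The library labelled Zmynd8 KO gave a like set of values against the same Zmynd8 library. Of the 8 genes 6 were called higher and none lower, where 33.8% of all 21302 genes were called higher and 36.5% lower. Dusp1 rose from 5418 to 9828 (1.81 times, limits 1.75 to 1.88), Dusp7 from 322 to 552 (1.71 times, limits 1.49 to 1.97) and Dusp2 from 7396 to 10089 (1.36 times, limits 1.32 to 1.41). Dusp16 rose from 2203 to 2903 and Dusp5 from 591 to 760.5, and Dusp4 read 41.7 and 60.4 with limits of 0.959 to 2.21 times. Dusp6 (303 and 300.2) and Dusp10 (130.3 and 154) were not called, and none of the 8 reached a fold of 2, where 25.6% of all genes did. Since both comparisons share the Zmynd8 library, in which the neutrophil markers were highest (10353 CPM against 4422 and 6966 CPM), they are not independent. Macrophage markers moved the other way, summing to 4978 CPM with Zmynd8, 9447 CPM with D/E-A and 6388 CPM in the library labelled Zmynd8 KO, and 7 of the 8 were called higher in both comparisons. Rn18s-rs5 read 137355, 65039.6 and 111353 CPM in the same order, and the LPS markers summed to 4515, 7909 and 6438 CPM. The part of these genes in the differences was not tested.

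In the p65 lines the K122R library was set against that with WT p65. Of the 8 genes 7 were called higher and 1 lower, where 30.8% of all 19670 genes were called higher and 32.5% lower. Dusp4 rose from 481 to 1447 (3.01 times, limits 2.72 to 3.34) and Dusp1 from 1059 to 3057 (2.89 times, limits 2.69 to 3.10). Dusp10 rose from 86.3 to 142 (1.64 times, limits 1.25 to 2.17) and Dusp7 from 159 to 233 (1.47 times, limits 1.2 to 1.81). Dusp5 (1733 and 2119) and Dusp16 (999.7 and 1203) rose by less, Dusp6 read 36.3 and 44.9 with limits of 0.780 to 1.97 times, and Dusp2 fell from 5946 to 4583 (1.30-fold, limits 1.25 to 1.35). Dusp1 and Dusp4 reached a fold of 2, where 20.0% of all genes did. Scaling whole reads by their totals, with the binomial test, lowered the median gene from 0.01 to -0.09 on the log2 scale and the share of calls that were higher from 48.6% to 28.7%, and left 4 of the 8 genes called higher and 1 lower, with Dusp5, Dusp6 and Dusp16 not called, where 29.3% of all genes were called.

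The p65 KO library, set against the same WT p65 library, had 5 of the 8 genes called higher and 1 lower, where 26.3% of all 19879 genes were called higher and 25.7% lower. Dusp4 rose from 482 to 913 (1.90 times, limits 1.70 to 2.12), Dusp6 from 36.4 to 69.2 (1.90 times, limits 1.26 to 2.92) and Dusp10 from 86.5 to 159.7 (1.85 times, limits 1.41 to 2.42). Dusp1 rose from 1061 to 1659 (1.56 times, limits 1.45 to 1.69) and Dusp5 from 1737 to 2127 (1.22 times), while Dusp16 fell from 1002 to 792 (1.26-fold) and Dusp2 (5958 and 5162) and Dusp7 (159 and 146) were not called. None of the 8 reached a fold of 2, where 15.8% of all genes did. Median log2 differences over the 8 genes were 0.45 (D/E-A), 0.42 (Zmynd8 KO), 0.42 (K122R) and 0.47 (p65 KO), set beside -0.03 to 0.02 over all genes. The K122R and p65 KO comparisons share the WT p65 library, as D/E-A and Zmynd8 KO share the Zmynd8 library. These medians are therefore not independent. Rela itself read 5963 with K122R against 1571 with WT p65, so that the K122R and WT p65 lines also differed in the amount of p65 mRNA. Zmynd8 fell from 1791 to 1091 with K122R, Rn18s-rs5 read 1792 CPM with WT p65 and 5094 CPM with K122R, and the dendritic cell markers summed to 100.5 and 50 CPM. The part of these differences was not tested.

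**Figure D5:**
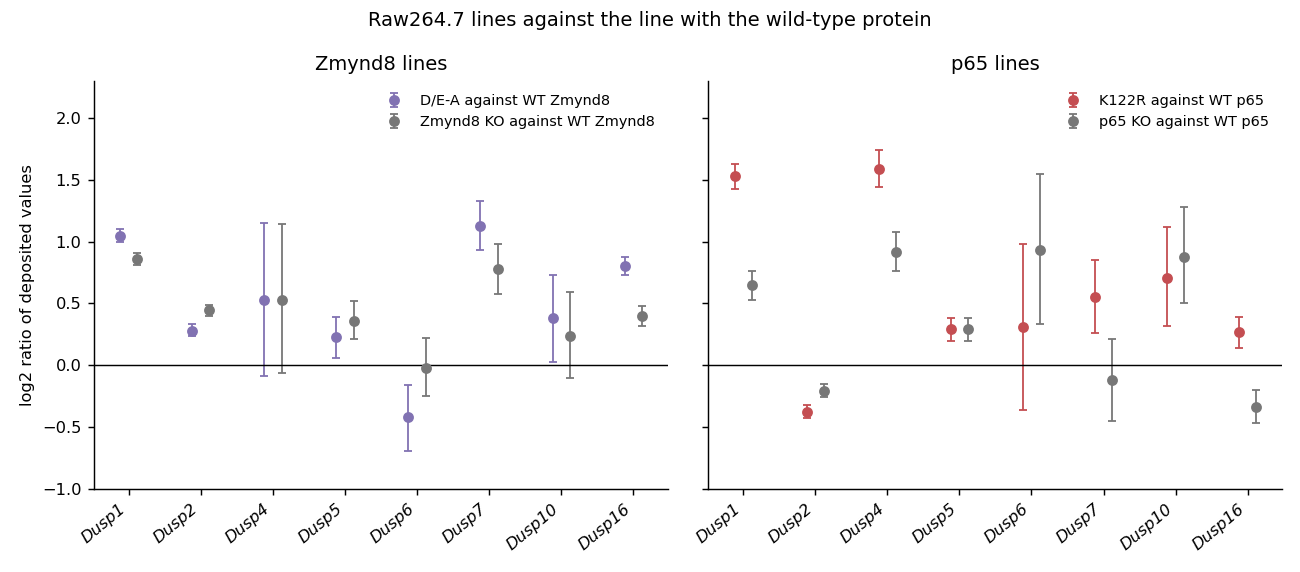
Log2 ratio of deposited normalized values (vertical axis) for the 8 genes, left for D/E-A and Zmynd8 KO against the Zmynd8 line and right for K122R and p65 KO against the WT p65 line, with exact 95% counting limits as bars. Dusp1 lay above 0 in all 4 comparisons (1.56 to 2.89 times), Dusp2 lay above 0 in the Zmynd8 lines and below 0 in the p65 lines. Both comparisons of a panel share the same reference library and are not independent.

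Lists in the Raw264.7 lines stand beside 36.7% of all genes called higher and 35.9% lower with D/E-A, 33.8% and 36.5% in the library labelled Zmynd8 KO, 30.8% and 32.5% with K122R and 26.3% and 25.7% in p65 KO. The ERK-responsive list had 11 of 16 genes called higher and 4 lower with D/E-A, at a median log2 difference of 0.72 set beside 0.02 over all genes, led by Spred1 (1958 and 5303) and Egr3 (42.0 and 107). With K122R 9 of 17 were called higher and 3 lower (median 0.36), and Egr1 read 216 and 1399.6. In the library labelled Zmynd8 KO 8 of 17 were called higher and 5 lower (median 0.26), and in p65 KO 8 of 17 higher and 3 lower (median 0.21). The p38 and MK2 list had 2 of 9 higher and 4 lower with D/E-A (median -0.21), with Ptgs2 at 5086 and 13092 and Cxcl1 at 524 and 142, and 6 of 8 higher and 1 lower with K122R (median 0.64). In p65 KO 2 of 8 of this list were called higher and 2 lower (median -0.03), and in the library labelled Zmynd8 KO 2 of 9 higher and 2 lower (median -0.03). Map3k8 read 750.3 and 1787 with D/E-A, and 801 and 1467 in the library labelled Zmynd8 KO, set beside 9 of 12 and 5 of 13 upstream kinases called higher.

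Across the 6 BMDM libraries, the genes whose log2(CPM + 1) followed each member most closely were sought among 8225 genes with a mean of at least 10 CPM. Dusp4 was followed by Rnmt, Mkl2 and Terf2 (Pearson r of 0.999 to 1.00), which read 24.3 to 26.7, 59.5 to 70.8 and 14.2 to 14.9 CPM without treatment and lay lower with LPS and higher with IL-4. The correlation does not measure the size of a change. Over the 6 libraries Rnmt spanned 11.4 to 40.1 CPM, Mkl2 18.9 to 121 CPM and Terf2 8.63 to 20.1 CPM, while Dusp4 spanned 1.41 to 239.9 CPM. Dusp1 was followed by Psat1, Gmppb and Mcmbp (0.995 to 0.997), Dusp2 by Ero1l, Snx10 and A530040E14Rik (0.997 to 0.999), and Dusp5 by Lrrfip2, Gpx3 and Por (0.994 to 0.998). Dusp6 was followed by Cdk6, Rnf128 and Ifrd1 (0.993 to 0.996) and Dusp7 by Ppp2cb and Rraga (0.998 to 0.999). Dusp10 was followed by Txn1, Oser1 and Higd1a (0.996 to 0.997) and Dusp16 by Gm21860, Cd200 and Rilpl2 (0.99 to 0.995). These are descriptions over 6 libraries that fall into 3 treatments, and no other member was among the 3 nearest genes of any member, although Dusp10, with a mean under 10 CPM, could not be one.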

How the data were processed

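RNA-seq was analysed from 12 of the 47 samples of the series, and the other 35 were not analysed here. The study's methods, which describe the BMDM samples, give libraries made from polyadenylated RNA. Groups came from the labels. The 8 genes and the pathway lists were chosen with earlier results of these data known. The BMDM tables deposited by the authors hold estimated counts, which were rounded to whole numbers, and TPM. The Raw264.7 tables deposited by the authors hold normalized values (a signal, read counts divided by a factor per library) and the authors' own fold changes and p-values, which were not used, and neither were 2 per-sample columns that no label names. Of these values 100% were whole multiples of 1 read within 0.02 reads, with 1 exception, the Zmynd8 value of the library labelled Zmynd8 KO. For RNA-seq the study's methods name TopHat, run against mm10 transcripts, and Cuffdiff. The tool that made the deposited counts and TPM was not given in the sources used here. The submitters' processing notes also name CASAVA 1.4 and Bowtie 0.12.2 for the series. Entries that are not genes (431, 431 and 2 in the BMDM tables) were left out. The table with D/E-A lists no gene under 21 reads in the Zmynd8 library.

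BMDM counts were scaled to CPM. A gene with a mean of at least 10 counts was called at a fold of at least 1.2 on the log2(CPM + 1) scale and a Benjamini-Hochberg adjusted p under 0.05 by an exact binomial test, two-sided, of how the reads split between both libraries, which understates the error since it covers counting only. Normalized values with a mean of at least 1 were called by the fold alone, with a pseudocount of 1, and the binomial test on recovered reads, an alternative, called 7779 (D/E-A), 6469 (Zmynd8 KO), 5755 (K122R) and 2578 (p65 KO) genes. A log2 change with a pseudocount understates the change of low genes. The edgeR quasi-likelihood test cannot be fitted to 2 single libraries. It was fitted to the 6 BMDM libraries with genotype and treatment as additive terms, TMM scaling and a mean of at least 10 counts, an analysis added after the data had been seen, and DESeq2 was not run. Alternatives were median-ratio and TMM scaling, no filter, a pseudocount of 0.1, a fold of 2, the edgeR exact test with an assumed biological variation of 0.2, and the deposited TPM, and for the additive fit scaling by library totals and leaving out each library. Besides the 8 genes, Dusp8, Dusp9 and the check genes, the text names up to 2 called genes per list and direction with the largest log2 change, and the 3 genes most like each member, apart from items that are not reported here. Promoter windows came from RefSeq (GRCm38.p6). Scripts were tested on simulated data and used Python 3.11.15, numpy 2.4.6, scipy 1.17.1, pandas 2.3.3, R 4.3.3 and edgeR 4.0.16.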

Additional observations from a re-analysis of the deposited data

Results flagged for a closer look

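Dusp4 differed between cKO and WT BMDMs in opposite directions under 2 treatments. Without treatment it was called lower in cKO, with a log2(CPM + 1) difference of -0.44 (38.1 against 52.0 CPM), and with LPS it was called higher, with a difference of 0.89 (3.46 against 1.41 CPM, from 81 and 35 counts). With 1 library per condition the difference between these 2 effects was not tested.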

How the results depend on the processing

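No library could be left out of a comparison of 2, and the labels give no second replicate number to pair by. The additive fit over the 6 BMDM libraries, which pairs WT and cKO by treatment, called 0 of the 8 genes for genotype, 7 for LPS and 6 for IL-4. Leaving out each library in turn gave 0 of the 8 for genotype, 7 for LPS and 5 to 8 for IL-4, and 6 to 32, 5323 to 7097 and 1555 to 4590 of all genes in place of 0, 6637 and 2718. For IL-4 all genes numbered 4590 without WT NT, 1581 without WT IL-4 and 1555 without cKO IL-4. Scaling by library totals gave 0, 7 and 5 of the 8, and took the share of LPS calls that were higher from 49.5% to 23.5% and that of IL-4 from 51.1% to 64.1%. Of the alternative values for single members in comparisons of 2 libraries, 482 kept their call and stayed near the first value, 35 moved, 7 gained and 27 lost the call, and 1 called value changed sign, Dusp6 in cKO against WT with IL-4, at -0.01 by TPM (the cause was not tested). Counting values that were not called, 10 changed sign, Dusp5 among them with LPS, and 10 more did in the additive fit. Without a pseudocount Dusp4 was 2.46 times as high in cKO as in WT with LPS. With a pseudocount of 1, the number of the 8 genes called at a fold of 2 was 0 in all 3 cKO comparisons with WT and for Zmynd8 KO and p65 KO, and 2 for D/E-A and for K122R. With the edgeR exact test at a variation of 0.2 it was 0 in the 3 cKO comparisons with WT and 4 for IL-4 in WT, so the genotype differences do not pass once such variation is assumed. By TPM it was 3 for untreated cKO, with Dusp2 and Dusp6 also lower, where only 22.0% of the calls over all genes were higher. On whole reads the number of the 8 genes called was 4 for D/E-A and 5 for K122R. Over all genes a fold of 2 left 477 calls (NT), 112 (LPS) and 261 (IL-4) between cKO and WT, against 5934, 3204 and 3208. It left 5548 and 5825 for LPS and 2124 and 2740 for IL-4 in WT and cKO, and 2345 (D/E-A), 5460 (Zmynd8 KO), 3926 (K122R) and 3149 (p65 KO). The edgeR exact test gave 273, 37 and 160 calls between cKO and WT, 6730 and 6917 for LPS, and 2354 and 3039 for IL-4. Whole reads gave 6469 (Zmynd8 KO), 5755 (K122R) and 2578 (p65 KO). By TPM the share of calls that were higher was 22.0% in place of 45.5% for untreated cKO against WT and 76.6% in place of 63% for IL-4 in cKO. Depth limits Dusp4 with LPS (35 and 81 counts), Dusp8 and Dusp9, and the Raw264.7 values of Dusp4 in the Zmynd8 lines and of Dusp6 in the p65 lines.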
